A study of Mus musculus with 8 samples.

Results

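The 8 genes described here encode chemokine receptors of mature thymocytes: Ccr2, Ccr4, Ccr7, Ccr8, Ccr9, Cxcr3, Cxcr4 and Cxcr6. They were picked by name from the 47937 genes of the count table, and they were selected on values that included the knockout-to-control comparison, so their own differences between the groups are given as a description, with no p-value. How many of them the fit over all genes called is stated beside the share of all genes called. All 8 passed the filter on low counts, among 14633 genes that did. RNA was sequenced from 8 libraries of sorted thymocytes, 4 labelled Ndrg3ctrl and 4 labelled Ndrg3TKO, from mice aged 6 to 7 weeks. The sorted cells were CD8 single-positive (CD8SP) thymocytes, positive for TCRb and high for MHC class I, which places them late in thymic development.

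Ndrg3ctrl mice carried the genotype Ndrg3 +/fl;Lck-cre+, with 1 normal and 1 floxed allele, and Ndrg3TKO mice carried Ndrg3 fl/fl;Lck-cre+, with 2 floxed alleles. Both groups therefore carried the Cre recombinase, driven by the proximal Lck promoter, which is active from an early thymocyte stage, and a control cell is expected to retain a single working Ndrg3 copy. The floxed allele came from 1 embryonic stem cell clone and removes a single exon of Ndrg3. Mice of both sexes were used in the study, and the labels do not name the sex of a library. The replicates are described as biological, 4 in each group.

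Chemokine receptors are G protein-coupled receptors that steer cells along gradients of small secreted proteins, the chemokines. In the thymus, Cxcr4 binds Cxcl12 and holds immature cells in the cortex, Ccr9 binds Ccl25 and guides precursors and developing cells, and Ccr4 and Ccr7 draw positively selected cells into the medulla toward Ccl17 and Ccl22 and toward Ccl19 and Ccl21. Cxcr3, which binds Cxcl9 and Cxcl10, and Cxcr6, which binds Cxcl16, are known from effector, memory and innate-like T cells, Ccr8 binds Ccl1, and Ccr2 binds Ccl2 and is best known from monocytes.

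Cxcr3 and Cxcr6 carried the largest differences between the groups, and the sequence just upstream of the RefSeq start of each is shown for that reason, with Ccr9 as the neighbor of Cxcr6 whose values lay on the other side. The Ccr9 stretch lies inside the Ccr9 gene as GENCODE annotates it, since that gene model begins farther upstream. The sequences are from RefSeq on GRCm38.p6, read 5′ to 3′ on the strand of the gene, and stop where an annotated exon begins. Promoter windows around the start sites were matched by symbol for 7 of the 8 genes, all but Ccr7. They were searched on both strands for the core letters of the T-box, RUNX, GATA, KLF and FOX families of transcription factors, and the capitals mark the matches (RUNX in Cxcr6, KLF in Ccr9 and none in the Cxcr3 stretch). The Cxcr6 stretch lies at chr9:123806227-123806474 on the plus strand, the Ccr9 stretch at chr9:123766961-123767168 on the plus strand and the Cxcr3 stretch at chrX:101734270-101734397 on the minus strand.
Cxcr6: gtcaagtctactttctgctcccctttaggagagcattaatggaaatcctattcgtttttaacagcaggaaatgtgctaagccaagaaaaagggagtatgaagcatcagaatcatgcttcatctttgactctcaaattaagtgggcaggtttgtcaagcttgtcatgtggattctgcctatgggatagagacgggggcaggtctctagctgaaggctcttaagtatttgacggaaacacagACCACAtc
Ccr9: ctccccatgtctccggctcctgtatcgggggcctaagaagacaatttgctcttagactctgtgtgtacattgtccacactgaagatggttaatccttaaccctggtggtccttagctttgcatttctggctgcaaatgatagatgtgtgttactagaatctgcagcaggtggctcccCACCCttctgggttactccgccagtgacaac
Cxcr3: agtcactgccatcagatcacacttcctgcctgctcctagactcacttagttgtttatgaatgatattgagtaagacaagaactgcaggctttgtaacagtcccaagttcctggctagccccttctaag

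The RUNX letters, TGTGGT, were found in the windows of Cxcr3 and Cxcr6 and of no other gene of the 7, and in 16.8% of all 32851 promoter windows. Both are shown in windows of 30 bases, a choice made with the group differences of these genes known. The capitals in them are the RUNX letters read on the opposite strand. The Cxcr3 window, chrX:101734240-101734269 on the minus strand, lies in an annotated exon just downstream of the stretch above, with the match at −110 to −105 from the RefSeq start. The Cxcr6 window, chr9:123806455-123806484 on the plus strand, spans the start, with the match at −10 to −5.
Cxcr3 window: tgtattcacctgACCACAggcgtggcagaa
Cxcr6 window: acggaaacacagACCACAtcacagagaacc
The Cxcr3 promoter held a further RUNX match at 12 to 17 after its start. The T-box letters, GGTGTG, were found in 1 of the 7 genes, Ccr9, against 19% of all windows. The GATA letters, AGATAA, were found in 2 of 7, Ccr2 and Ccr8, against 11.2%. The KLF letters, CACCC, were found in 4 of 7, Ccr4, Ccr8, Ccr9 and Cxcr4, against 57.5%. The FOX letters, TGTTTAC, were in none of the 7 windows and in 3.65% of all windows. No motif letters overlapped in these windows. These matches describe letters in short windows and do not show binding.

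The libraries held between 21126698 and 32668081 counts assigned to genes, and 3 counts corresponded to 0.092 to 0.147 CPM (each gene's counts relative to the library total, scaled by edgeR's TMM factors), the level used as the floor of detection. This floor covers counting error only. Ndrg3 itself was 79.2, 81.4, 81.1 and 80.9 CPM in Ndrg3ctrl 1 to 4 and 50.4, 48.4, 53.1 and 55.3 CPM in Ndrg3TKO 1 to 4. The groups did not overlap, and the log2 fold change of −0.64 ± 0.053 (SE) passed the test (edgeR quasi-likelihood, adjusted p = 1.04e-05). The gene-level count includes reads from the exons that the floxed allele leaves in place. The sorted identity was checked on 11 genes of the CD8SP T cell surface, among them Cd8a, Cd8b1, Cd3e, Cd3d, Cd3g, Trac, Trbc1, Trbc2, B2m, H2-K1 and H2-D1. All 11 were present in every library, at between 272.6 and 1560 CPM, and 0 of them passed the test of a group difference in edgeR or DESeq2 or had an unadjusted p under 0.05. Cd4 was at 0.245 to 1.47 CPM. Counts of Y-linked genes were 353.1 CPM in Ndrg3ctrl 2, 388.7 CPM in Ndrg3TKO 2 and 412.5 CPM in Ndrg3TKO 3, and at most 0.0731 CPM in the other 5 libraries.

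Across the 14633 genes tested, 168 differed at an adjusted p below 0.05, which is 1.15%, with 0.355% lower and 0.793% higher in Ndrg3TKO. An unadjusted p under 0.05 in edgeR was reached by 1588 of the 14633, the background for such counts in the gene lists. Of the 8 receptors, 2 were called lower, Cxcr3 and Cxcr6, and 0 higher. The groups did not overlap in CPM for 7.04% of tested genes and for 3 of the 8 receptors, Cxcr3, Cxcr6 and Ccr9. Because the receptors were selected on this comparison, nothing is read from these counts. The log2 fold change was below 0 for 7 of them and above 0 for Ccr9 alone, with a median of −0.28, against a median of −0.0033 over all tested genes.

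**Figure D1:**
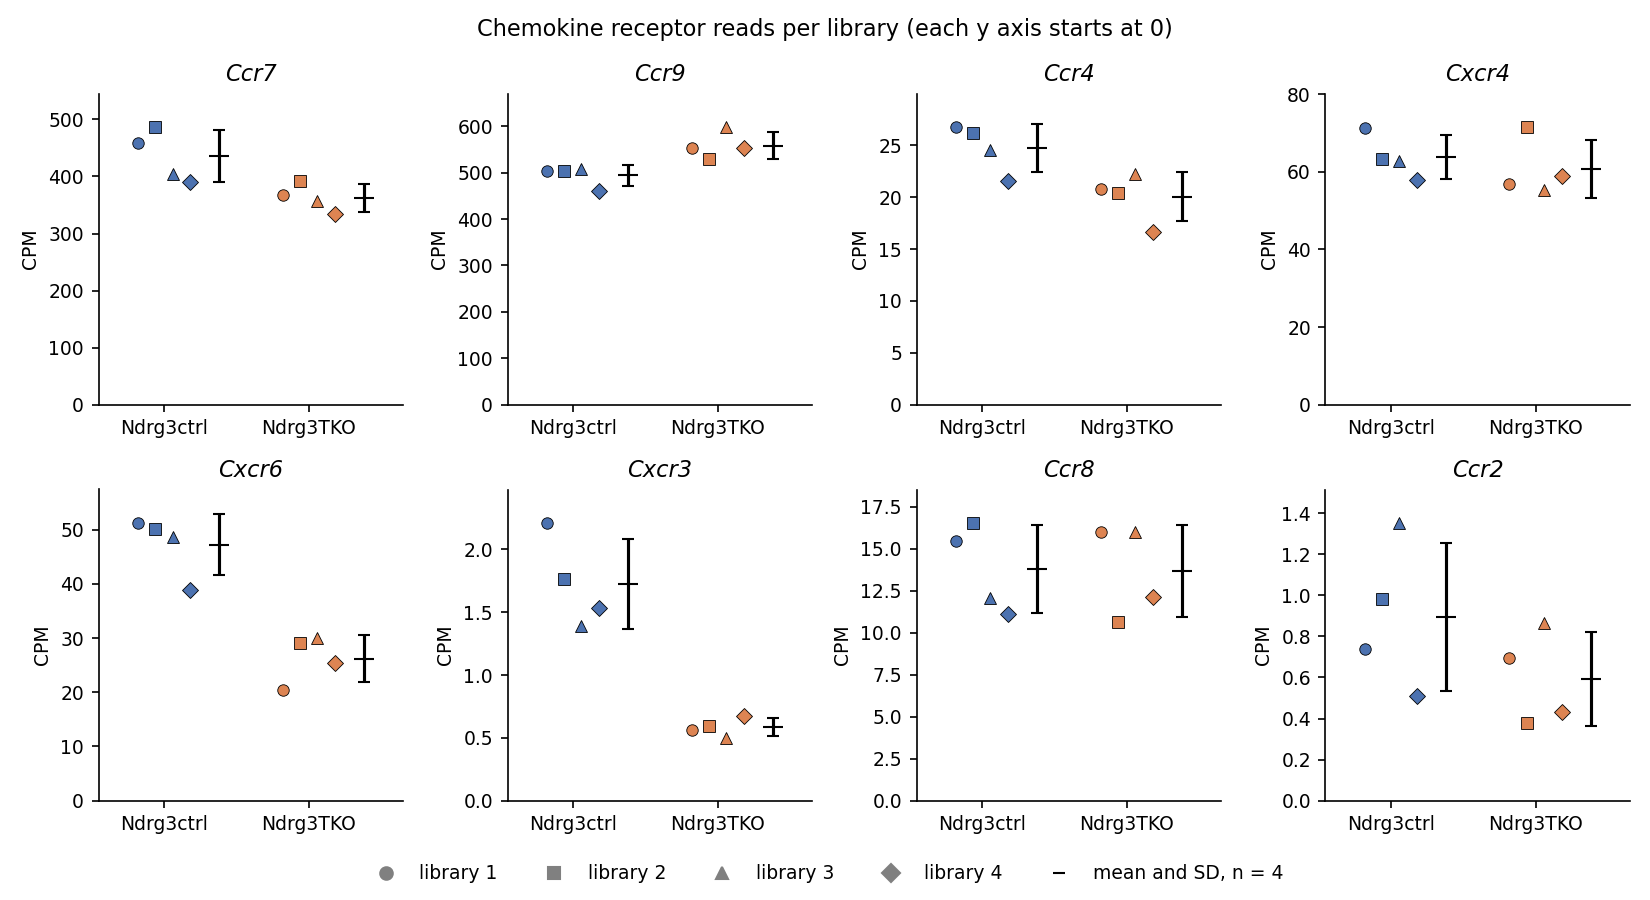
Normalised reads per library for the 8 receptors. The y axis gives CPM and starts at 0 in each panel, points are single libraries with a marker for each library number, and bars give the mean and SD of 4 libraries. The groups are apart in the panels of Cxcr3, Cxcr6 and Ccr9 and overlap in the other 5.

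Cxcr3 had the largest relative difference. It was 2.21, 1.77, 1.39 and 1.54 CPM in Ndrg3ctrl 1 to 4 and 0.563, 0.596, 0.501 and 0.675 CPM in Ndrg3TKO 1 to 4. The highest knockout library lay below the lowest control library. The group means were 1.73 ± 0.36 CPM (SD, n = 4) and 0.584 ± 0.0727 CPM (SD, n = 4), and the log2 fold change was −1.55 ± 0.24 (SE), which is 2.94-fold lower. These levels rest on few reads, 36 to 66 counts per control library and 15 to 22 counts per knockout library. Cxcr3 lies on the X chromosome, and the libraries with Y-linked counts were split between the groups. Its CPM in these was 1.77 in Ndrg3ctrl 2 and 0.596 and 0.501 in Ndrg3TKO 2 and 3, and in the other 5 libraries it was 1.39 to 2.21 in controls and 0.563 and 0.675 in knockouts. Only 1 control library had Y-linked counts, so no spread stands behind that part of the comparison. With the summed Y-linked level as a covariate the log2 fold change of Cxcr3 was −1.54 ± 0.25 (SE).

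Cxcr6 had the largest difference among the receptors with abundant reads. It was 51.2, 50.2, 48.7 and 38.9 CPM in Ndrg3ctrl 1 to 4 and 20.4, 29, 30 and 25.3 CPM in Ndrg3TKO 1 to 4. No knockout library reached the lowest control library, Ndrg3ctrl 4. The mean fell from 47.2 ± 5.67 to 26.2 ± 4.36 CPM (SD, n = 4 each), with a log2 fold change of −0.85 ± 0.12 (SE), 1.8-fold lower. The counts were 1022 to 1529 per control library and 615 to 925 per knockout library. Fyco1 overlaps Cxcr6 on the opposite strand, and whether reads were counted by strand is not given in the sources used here. Fyco1 was 119.3 to 145 CPM in Ndrg3ctrl and 121 to 147.1 CPM in Ndrg3TKO, with a log2 fold change of 0.06 ± 0.07 (SE; edgeR adjusted p = 0.823). In RNA from a pool of cells, fewer cells that use a receptor and less receptor RNA per cell cannot be told apart, here and for each gene below.

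Ccr9 was the only receptor with higher values in Ndrg3TKO. It was 504, 504.4, 507.8 and 460.4 CPM in Ndrg3ctrl 1 to 4 and 552.3, 528.6, 598.8 and 554.2 CPM in Ndrg3TKO 1 to 4. The groups did not overlap, although the distance between the highest control and the lowest knockout library was small. The log2 fold change was 0.18 ± 0.057 (SE), 1.13-fold. Ndrg3ctrl 1, 2 and 3 lay close together and Ndrg3ctrl 4 lay below them. Lztfl1, which overlaps Ccr9 on the opposite strand, was 48.8 to 59.9 CPM in Ndrg3ctrl and 53.9 to 71.3 CPM in Ndrg3TKO (log2 fold change 0.25 ± 0.087, SE; edgeR adjusted p = 0.286).

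The receptors for medullary entry, Ccr7 and Ccr4, had lower mean values in Ndrg3TKO with overlapping groups. Ccr7 was 459.2, 487, 403.8 and 390.8 CPM in Ndrg3ctrl 1 to 4 and 367.2, 392.7, 356.4 and 334.6 CPM in Ndrg3TKO 1 to 4. The groups met at a single pair, Ndrg3ctrl 4 and Ndrg3TKO 2, and the log2 fold change was −0.26 ± 0.074 (SE). Ccr4 was 26.8, 26.2, 24.6 and 21.6 CPM in Ndrg3ctrl 1 to 4 and 20.8, 20.4, 22.2 and 16.7 CPM in Ndrg3TKO 1 to 4. Here too the groups met at a single pair, Ndrg3ctrl 4 and Ndrg3TKO 3, with a log2 fold change of −0.31 ± 0.095 (SE).

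Cxcr4, the receptor of the cortex, overlapped across its whole range. It was 71.4, 63.4, 62.7 and 57.8 CPM in Ndrg3ctrl 1 to 4 and 57, 71.6, 55.4 and 59 CPM in Ndrg3TKO 1 to 4, and its log2 fold change was −0.07 ± 0.084 (SE). Ccr8 was 15.5, 16.5, 12.1 and 11.1 CPM in Ndrg3ctrl 1 to 4 and 16, 10.6, 16 and 12.2 CPM in Ndrg3TKO 1 to 4. Both groups of Ccr8 values fell into a higher and a lower pair of libraries, and the log2 fold change was −0.01 ± 0.16 (SE), with a sign that depended on which library was included. Ccr2 was 0.737, 0.982, 1.35 and 0.512 CPM in Ndrg3ctrl 1 to 4 and 0.696, 0.376, 0.868 and 0.43 CPM in Ndrg3TKO 1 to 4. With 12 to 40 counts per library, its log2 fold change of −0.6 ± 0.35 (SE) was imprecise and its groups overlapped. Ndrg3ctrl 4 was the lowest control library for 7 of the 8 receptors, all but Cxcr3.

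Levels of different genes were compared as FPKM, the CPM divided by the length of the annotated exons. In Ndrg3ctrl the order of mean FPKM was Ccr7, Ccr9, Cxcr4, Cxcr6, Ccr8, Ccr4, Cxcr3 and Ccr2, and it was the same in Ndrg3TKO. Ccr7 stood highest at 220 ± 23 FPKM (SD, n = 4) in controls and 183.4 ± 12.2 FPKM (SD, n = 4) in knockouts. Ccr9 followed at 48.2 ± 2.2 and 54.4 ± 2.85 FPKM, and Cxcr4 at 35.3 ± 3.12 and 33.6 ± 4.09 FPKM. Cxcr6 was 24.5 ± 2.93 FPKM in controls and 13.6 ± 2.26 FPKM in knockouts, beside 11.8 ± 2.23 and 11.7 ± 2.32 FPKM for Ccr8. Ccr4 was 8.01 ± 0.748 and 6.47 ± 0.762 FPKM. Cxcr3 was 0.997 ± 0.208 and 0.337 ± 0.042 FPKM, and Ccr2 was lowest at 0.133 ± 0.0533 and 0.0876 ± 0.0341 FPKM. No neighbors in this order overlapped among the control libraries, and among the knockout libraries 1 pair did, Cxcr6 and Ccr8. The FPKM of Ccr9 depends on the length used, since its annotated exons cover 10260 bases and its longest transcript 5197 bases. With the longest transcript its control mean was 95.1 FPKM and its rank was unchanged.

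**Figure D2:**
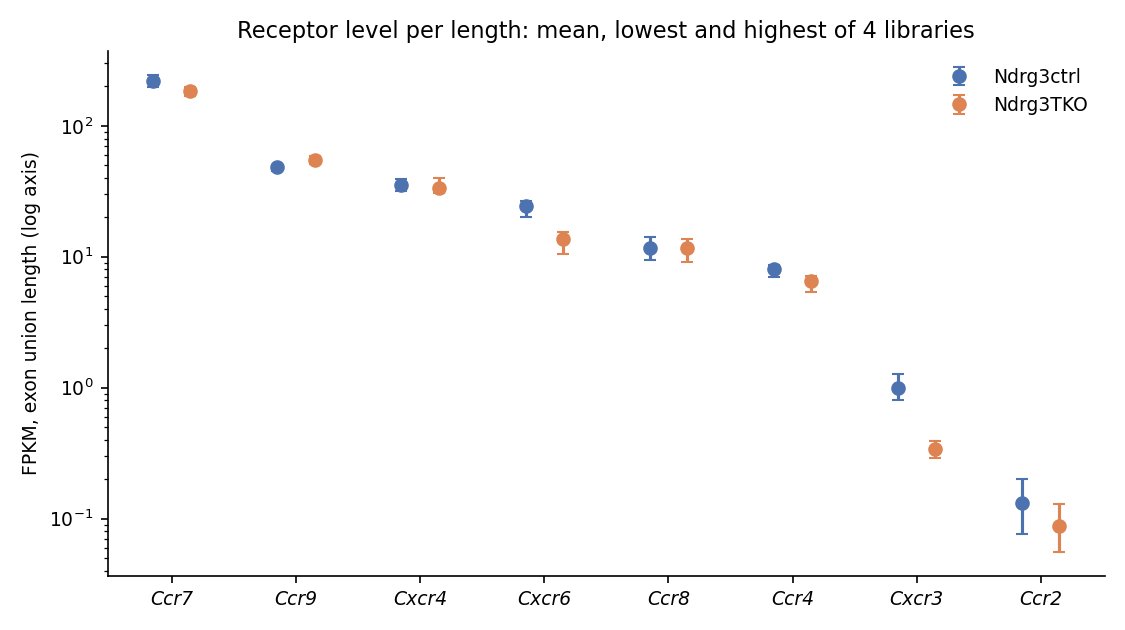
Receptor levels per length in order of the Ndrg3ctrl mean. The log y axis gives FPKM, points are means of 4 libraries and bars run from the lowest to the highest library. The order runs from Ccr7 to Ccr2 in both groups, and Cxcr6 of Ndrg3TKO reaches the range of Ccr8.

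Ratios within a library do not depend on the scaling between libraries. The ratio of Ccr9 to Ccr7 in CPM, a pair chosen after the values were seen, was 1.1, 1.04, 1.26 and 1.18 in Ndrg3ctrl 1 to 4 and 1.5, 1.35, 1.68 and 1.66 in Ndrg3TKO 1 to 4, with no overlap. Cxcr6 amounted to 11.2%, 10.3%, 12% and 9.95% of the Ccr7 CPM in Ndrg3ctrl 1 to 4 and to 5.55%, 7.39%, 8.42% and 7.58% in Ndrg3TKO 1 to 4. Both ratios lay on the same side of all controls in every knockout library. Of the summed FPKM of the 8 receptors, Ccr7 made up 61.4% to 64.8% in Ndrg3ctrl and 58.9% to 61.9% in Ndrg3TKO.

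Of the 8 receptor genes 5 (Ccr2, Ccr4, Ccr8, Ccr9 and Cxcr6) lay on chromosome 9, with Ccr7 on chromosome 11, Cxcr4 on chromosome 1 and Cxcr3 on chromosome X. Ccr9, Cxcr6 and Ccr2 lie close together, at chr9:123678439-123784330, chr9:123806475-123811760 and chr9:124101950-124113557 on GRCm38. The region from 500000 bases before the first to 500000 bases after the last held 27 genes of the table. Of these, 13 were tested, 10 were not among the receptors described, and 0 of the 10 were called in edgeR (3 at an unadjusted p under 0.05) or in DESeq2. The values closest to the receptors differed in sign, with log2 fold changes of −0.85 for Cxcr6, 0.06 for the overlapping Fyco1, 0.18 for Ccr9 and 0.25 for Lztfl1. Xcr1, Ccr1, Ccr1l1 and Ccr3, the chemokine receptor genes between Cxcr6 and Ccr2, were at or below 0.102 CPM in every library.

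**Figure D3:**
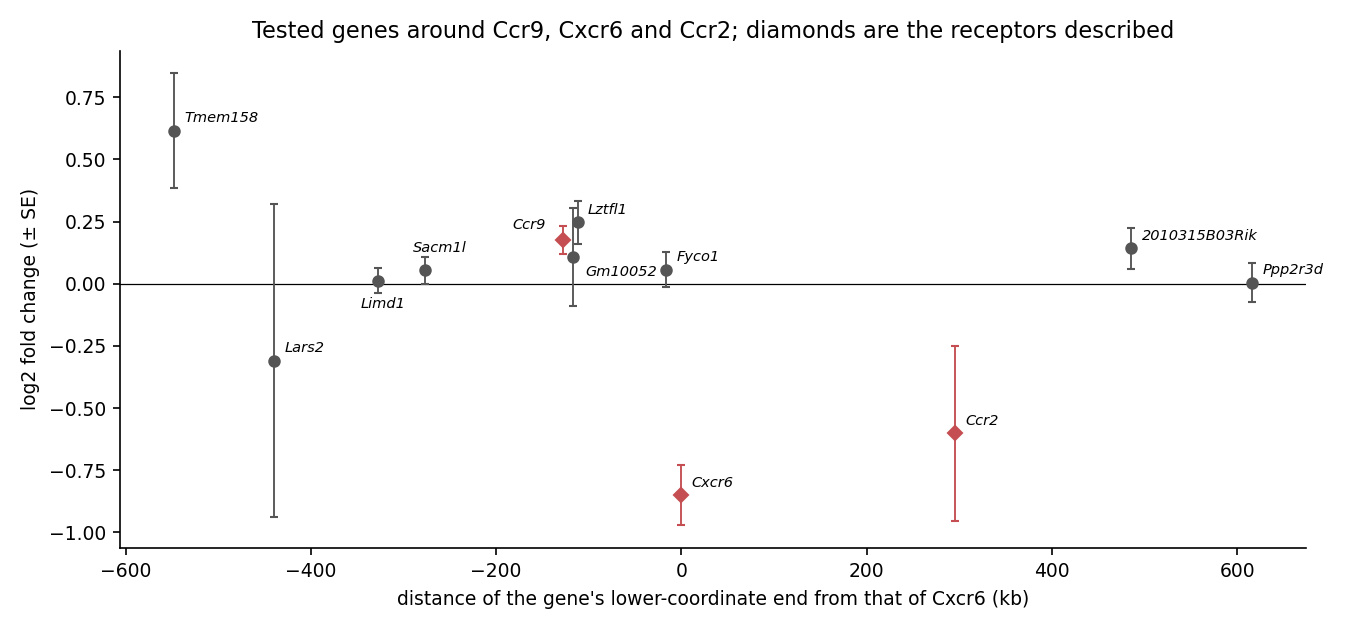
Tested genes of the chromosome 9 receptor region. The x axis gives distance from Cxcr6 in kb and the y axis the log2 fold change of Ndrg3TKO over Ndrg3ctrl with its SE, with the described receptors as diamonds. Cxcr6 lies at −0.85 and the overlapping Fyco1 at 0.06. Ccr2, the next gene drawn after Cxcr6, lies at −0.6 with a wide error, and 1 tested gene is not drawn.

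Most other chemokine receptor genes were barely present. Of 16 further receptors, 12 had at most 3 counts in every library, and 4 were tested, with 0 called in edgeR or DESeq2 and 2 at an unadjusted p under 0.05 in edgeR. Cx3cr1, the fractalkine receptor, was 7.78 to 10.7 CPM in Ndrg3ctrl and 6.02 to 8.78 CPM in Ndrg3TKO (log2 fold change −0.38 ± 0.14, SE; edgeR adjusted p = 0.278). Cxcr5, which guides cells to B cell follicles, had a log2 fold change of 0.37 ± 0.25 (SE; adjusted p = 0.638), and Ccrl2, an atypical receptor, 0.15 ± 0.4 (SE; adjusted p = 0.927), both from edgeR.

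Chemokines themselves are mostly made by stromal and myeloid cells, and 19 of 38 ligand genes had no count in any library. Of 7 that were tested, 1 passed the test in edgeR and in DESeq2, Ccl5, a chemokine of effector and memory lymphocytes. It was 1.31, 1.38, 1.15 and 1.13 CPM in Ndrg3ctrl 1 to 4 and 0.166, 0.157, 0.267 and 0.338 CPM in Ndrg3TKO 1 to 4. All controls lay above all knockouts, whose counts of 5 to 11 per library were close to the floor, and the log2 fold change was −2.39 ± 0.3 (SE; edgeR adjusted p = 6.03e-04). Ccl25, the ligand of Ccr9, was the highest of the list at 27.6 to 41.4 CPM in Ndrg3ctrl and 35.9 to 43.6 CPM in Ndrg3TKO (log2 fold change 0.11 ± 0.11, SE; edgeR adjusted p = 0.772). Xcl1, made by activated CD8 cells, and Ccl4, made by activated T cells and macrophages, followed at 8.77 to 18.2 CPM and 1.41 to 2.26 CPM over all libraries. Neither passed the test, with edgeR adjusted p-values of 0.981 for Xcl1 and 0.85 for Ccl4. The median log2 fold change of the tested ligands was −0.036, against −0.0033 over all tested genes.

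Genes that carry the signal from chemokine receptors to the cytoskeleton differed little. Of 33 such genes, 32 were tested and 0 passed in edgeR, with 3 at an unadjusted p under 0.05. The median log2 fold change was −0.016 and the range −0.26 to 0.26. Coro1a, an actin regulator needed for thymocyte egress, was highest at 1373 to 1710 CPM over all libraries (log2 fold change −0.06 ± 0.08, SE; edgeR adjusted p = 0.835). Rac2, a GTPase of blood cell migration, was 978 to 1130 CPM (adjusted p = 0.958), and Dock2, which activates it, was 701.1 to 778.8 CPM (adjusted p = 0.82), both from edgeR. DESeq2 called 2 genes of this list, Pik3r5 and Rhoh, both higher in Ndrg3TKO.

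A list of 20 factors was drawn up as possible regulators of chemokine receptor genes, a role that was not tested. Of the 20, 19 were tested for a group difference, 8 of them with an unadjusted p under 0.05, against 1588 of 14633 over all tested genes. In edgeR 2 were called, 1 in each direction. DESeq2 called 3, these 2 and Id3, an inhibitor of E proteins, which was 99.7 to 116.6 CPM in Ndrg3ctrl and 83 to 99.2 CPM in Ndrg3TKO (log2 fold change −0.27 ± 0.064, SE; edgeR adjusted p = 0.0716). Eomes, a T-box factor of memory and innate-like CD8 cells, was 14.3, 15.8, 12.6 and 18.2 CPM in Ndrg3ctrl 1 to 4 and 5.2, 7.37, 6.97 and 5.89 CPM in Ndrg3TKO 1 to 4. The lowest control lay well above the highest knockout, and the log2 fold change was −1.26 ± 0.14 (SE; edgeR adjusted p = 1.70e-04). Gata3, a factor of T cell development, was 62.1, 59.6, 56.7 and 55.9 CPM in Ndrg3ctrl 1 to 4 and 89.8, 80.5, 82.1 and 76.2 CPM in Ndrg3TKO 1 to 4. It rose in every knockout library relative to every control, with a log2 fold change of 0.49 ± 0.059 (SE; edgeR adjusted p = 5.25e-04). The most abundant factors of the list, Satb1, Tcf7 and Lef1, which organize T cell identity, had log2 fold changes of 0.02, 0.02 and −0.09 and did not pass (edgeR adjusted p = 0.945, 0.955 and 0.638). Runx1 and Runx3, the RUNX factors of the list, had log2 fold changes of −0.0086 ± 0.086 and 0.025 ± 0.054 (SE; edgeR adjusted p = 0.985 and 0.906). The median of the tested factors was 0.0091.

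**Figure D4:**
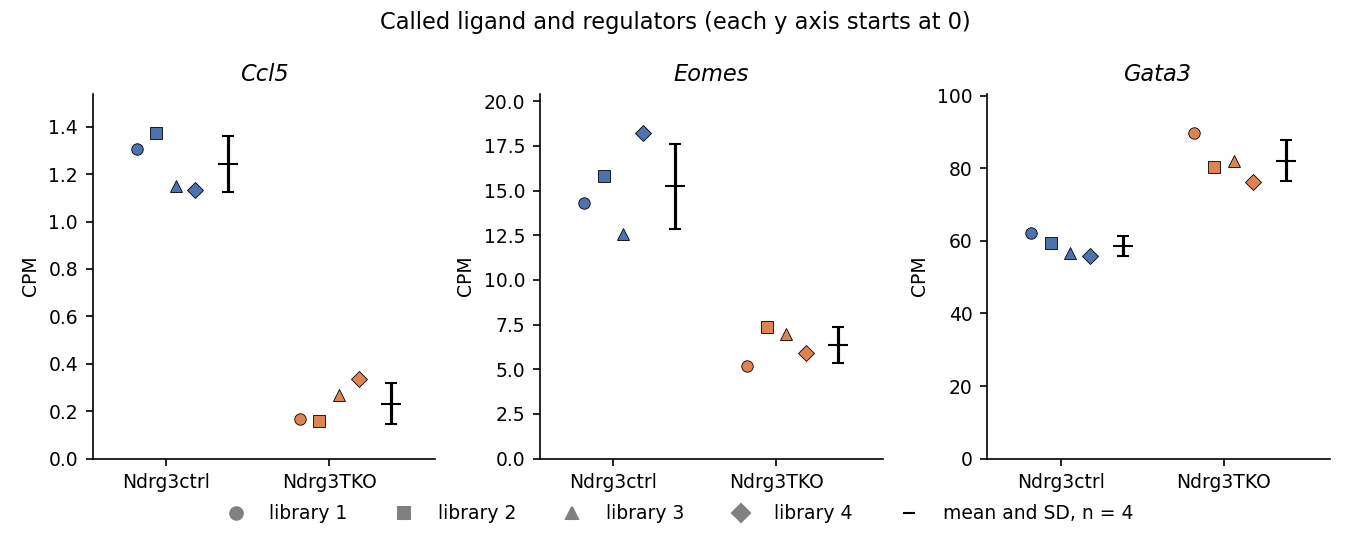
Normalised reads per library for Ccl5, Eomes and Gata3. The y axis gives CPM from 0, points are single libraries and bars the mean and SD of 4 libraries. Ccl5 and Eomes are lower and Gata3 higher in all Ndrg3TKO libraries, with no overlap between the groups.

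**Figure D5:**
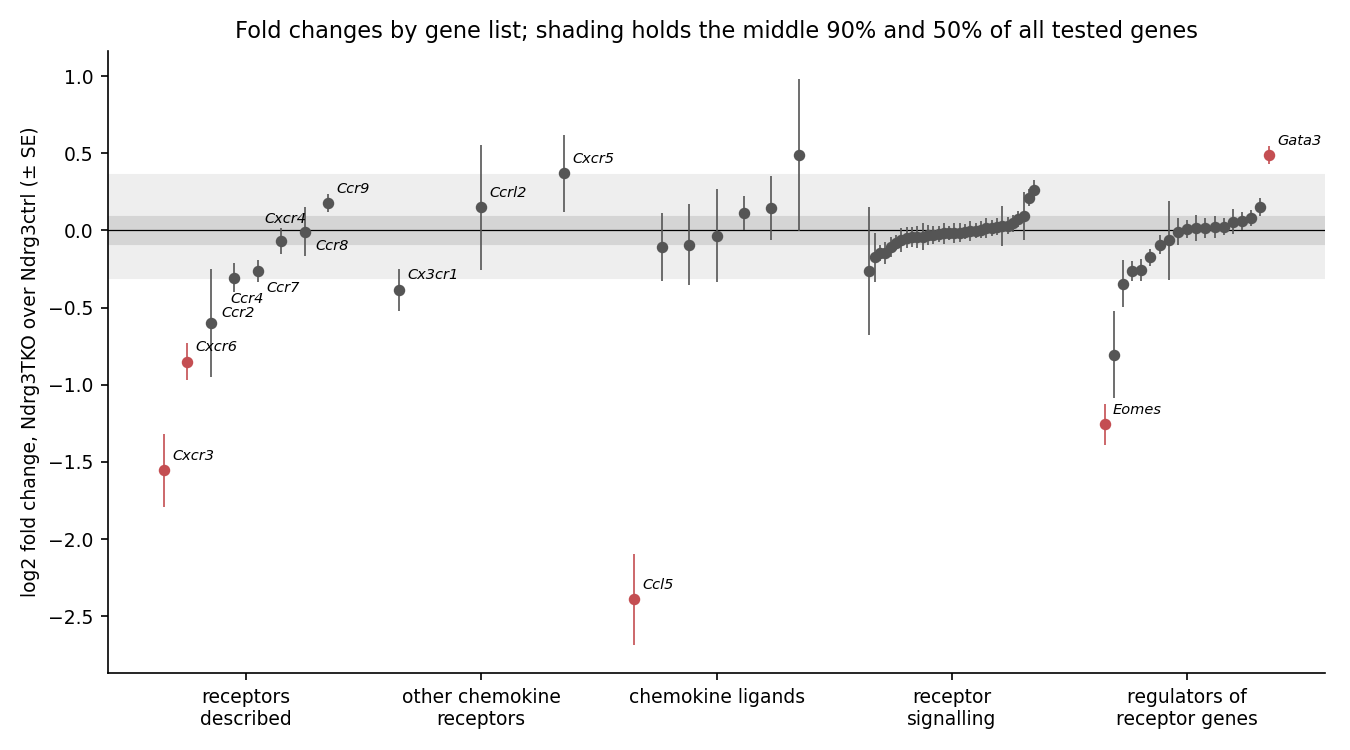
Log2 fold changes by gene list. The y axis gives the log2 fold change of Ndrg3TKO over Ndrg3ctrl with its SE, red marks an adjusted p below 0.05, and the shading spans the middle 90% of tested genes, from −0.31 to 0.36, and the middle 50%. Cxcr3, Cxcr6, Ccl5, Eomes and Gata3 are red, and the signalling genes stay within 0.26 of 0. Of the other receptors tested, 1 is not drawn.

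Markers of other cell states were read beside Cxcr3 and Cxcr6, whose known uses include innate-like and memory T cells. Of 10 markers of innate or virtual memory CD8 cells, 8 were tested and 2 passed in edgeR, both lower, Eomes and Ccl5, with 4 at an unadjusted p under 0.05. Eomes and Ccl5 are the same genes reported above among the regulators and the ligands, so their calls are no further result. DESeq2 called 3, the third being Ly6c2, a surface marker of memory cells, which was 14.1 to 21.4 CPM in Ndrg3ctrl and 7.78 to 13.1 CPM in Ndrg3TKO, with no overlap (log2 fold change −0.73 ± 0.165, SE; edgeR adjusted p = 0.0632). Of the 8 tested, 7 had a log2 fold change below 0 and 1, Klrd1, above 0. Klrd1 was 28.4 to 32.8 CPM in Ndrg3ctrl and 29.6 to 47.2 CPM in Ndrg3TKO (log2 fold change 0.31 ± 0.11, SE; edgeR adjusted p = 0.32). It was among the 4 at an unadjusted p under 0.05. The summed level of the list was 417.6 to 511.3 CPM in Ndrg3ctrl and 399.7 to 467.9 CPM in Ndrg3TKO, most of it Il2rb. Il2rb did not pass, at 299.5 to 367.4 CPM in Ndrg3ctrl and 292.7 to 342.6 CPM in Ndrg3TKO (edgeR adjusted p = 0.774). Of 8 markers of invariant NKT and MAIT cells, 6 were tested and 1 was called in edgeR and in DESeq2, with 2 at an unadjusted p under 0.05. The log2 fold change was below 0 for 3 of the 6 and above 0 for 3. The called gene was Icos, a costimulatory receptor, which was 88.1 to 100.5 CPM in Ndrg3ctrl and 75.5 to 80 CPM in Ndrg3TKO (log2 fold change −0.24 ± 0.054, SE; edgeR adjusted p = 0.0452). The summed level of that list was 309.4 to 334.2 CPM in Ndrg3ctrl and 286.3 to 322.2 CPM in Ndrg3TKO, with Slamf6 the highest of it. Zbtb16, the defining factor of those cells, had 4 to 10 counts per control library and 1 to 3 per knockout library and was not tested, and Il4 had at most 1 count. The part of such cells in the receptor values was not tested.

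Of 6 NK cell markers 2 were tested and 1 was called in edgeR and in DESeq2, with both tested genes at an unadjusted p under 0.05. Ncr1 and Klra8 were at 0 in every library. The called gene was Klrb1c, which encodes NK1.1, at 0.11 to 0.638 CPM in Ndrg3ctrl and 1.47 to 2.04 CPM in Ndrg3TKO (log2 fold change 2.62 ± 0.36, SE; edgeR adjusted p = 0.00149). Klrb1f, a related receptor gene and the highest of the list in controls, was 1.28 to 1.47 CPM in Ndrg3ctrl and 1.82 to 2.42 CPM in Ndrg3TKO, with no overlap (log2 fold change 0.58 ± 0.18, SE; edgeR adjusted p = 0.2). The summed NK list was 1.46 to 2.06 CPM in Ndrg3ctrl and 3.39 to 4.17 CPM in Ndrg3TKO. Of 11 myeloid and dendritic markers, bearing on Ccr2, 2 were tested and 0 passed in edgeR or DESeq2 or had an unadjusted p under 0.05, with Cd68 the highest at 2.55 to 4.93 CPM, S100a9 at 0 and the sum at 4.42 to 5.88 CPM in Ndrg3ctrl and 5.17 to 5.71 CPM in Ndrg3TKO. The part of these cells in the receptor values was not tested.

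Maturation was read from 6 genes of late thymocytes, of which 6 were tested and 0 passed in edgeR, with 4 at an unadjusted p under 0.05, while DESeq2 called 1, H2-Q7, a class I gene that was higher in Ndrg3TKO, at 366.1 to 414 CPM in Ndrg3ctrl and 422.4 to 517.5 CPM in Ndrg3TKO (log2 fold change 0.28, edgeR adjusted p = 0.0639). The other 5 genes of the list had log2 fold changes below 0. The median log2 fold change of the list was −0.15, in a range from −0.26 to 0.28. Of 8 genes of immature thymocytes, 6 were tested and 0 passed in edgeR, with 1 at an unadjusted p under 0.05, while DESeq2 called 1, Dntt, which was higher in Ndrg3TKO (log2 fold change 0.45, edgeR adjusted p = 0.0783). The list had a median log2 fold change of 0.15, in a range from −0.56 to 0.45. Cd69, the highest of these, was 88.2 to 113.9 CPM in Ndrg3ctrl and 97 to 128.2 CPM in Ndrg3TKO (edgeR adjusted p = 0.638). Summed over the list, the immature genes were at 132.7 to 162.2 CPM in Ndrg3ctrl and 154.4 to 185.5 CPM in Ndrg3TKO, and the mature genes at 2249 to 2645 and 2156 to 2399 CPM. The part of maturation stage in the receptor values was not tested.

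The remaining lists marked cells that a CD8SP sort is meant to leave out. In the gamma delta T cell, regulatory T cell, CD4 T cell, epithelial and stromal lists DESeq2 called 0 genes, and in the B cell list it called Cd79b. Of the gamma delta T cell markers 4 of 9 were tested and 0 passed in edgeR (1 at an unadjusted p under 0.05), with Trdc the highest over both groups at 10.4 to 14.1 CPM. The 1 was Cd163l1, at 1.38 to 3.4 CPM in Ndrg3ctrl and 3.54 to 11 CPM in Ndrg3TKO, with no overlap (log2 fold change 1.49 ± 0.43, SE; edgeR adjusted p = 0.216). The other 3 tested had log2 fold changes below 0. Of the regulatory T cell markers 5 of 5 were tested and 0 passed (3 at an unadjusted p under 0.05), with Ikzf2 the highest at 482.3 to 693.6 CPM, beside 2.6 to 6.54 CPM for Foxp3. Those 3, Foxp3, Il2ra and Ikzf2, had log2 fold changes of 0.53, 0.62 and 0.22 with overlapping groups (edgeR adjusted p = 0.293, 0.422 and 0.309). The other 2 had log2 fold changes below 0. Of the CD4 T cell markers 2 of 3 were tested and 0 passed (0 at an unadjusted p under 0.05), with Cd40lg the highest at 0.767 to 1.51 CPM. Of the B cell markers 1 of 6 was tested, Cd79b, at 10.9 to 13 CPM in Ndrg3ctrl and 8.07 to 9.19 CPM in Ndrg3TKO (edgeR adjusted p = 0.0529), while Ms4a1 was at 0 in every library. Of the thymic epithelial and stromal markers 3 of 9 were tested and 0 passed (0 at an unadjusted p under 0.05), with Pecam1, also a T cell gene, the highest at 145.8 to 175.3 CPM. Of 5 erythroid markers none was tested, and their sum was at most 0.232 CPM.

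The genes whose pattern over the 8 libraries was most like that of each receptor were ranked by the root mean square difference of z-scored log2 CPM, 0 being identical, over all 14633 tested genes. Each likeness includes the group difference of the receptor, but z-scores leave out the size of a change. The closest genes to Cxcr3 were Plekho2 at 0.22 and Srsf10 at 0.237, and those to Cxcr6 were Poll at 0.172 and Krcc1 at 0.212. Log2 fold changes were −0.16 for Plekho2 and −0.14 for Srsf10, beside −1.55 for Cxcr3. Slc27a6 at 0.142 was closest to Ccr7, and Nol11 at 0.228 and Nop16 at 0.244 were closest to Ccr4. Papss2 at 0.284 and B3gnt9 at 0.309 were closest to Ccr9, with log2 fold changes of 1.7 and 0.47 beside 0.18 for Ccr9. For the receptors with overlapping groups the nearest genes were Golt1b at 0.269 and Rpp14 at 0.311 for Cxcr4, Trav4-3 at 0.324 and Zfp775 at 0.35 for Ccr8, and Pigx at 0.283 and Gm10039 at 0.329 for Ccr2. No receptor was among the 2 closest genes of another.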

How the data were processed

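Total RNA of sorted CD8SP thymocytes was sequenced after ribosomal RNA depletion with a stranded kit. The deposited values are raw gene-level counts, which the authors made with cutadapt, STAR (GRCm38.p4, GENCODE M9) and featureCounts; the strand setting and the treatment of reads mapping to several places are not given in the sources used here. Libraries held 21126698 to 32668081 counts. Ensembl IDs were given symbols, positions and exon lengths from GENCODE M21 on the same GRCm38 assembly, and 98.5% of 47937 matched. The chemokine receptors and every gene list were chosen with earlier results of these data known.

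Groups followed the genotype labels. Genes passing edgeR's filterByExpr were scaled by TMM and tested with edgeR 4.0.16 in R 4.3.3 (quasi-likelihood, group only), with Benjamini-Hochberg adjustment over 14633 genes and a threshold of 0.05; the script was tested on simulated data. CPM used TMM-scaled totals, and FPKM divided CPM by exon length. Standard errors were derived from the F statistic. Likeness used log2 CPM with a prior count of 2. Genes named were the 8 receptors, Ndrg3, called genes of the pathway lists with the 3 most abundant of each, called neighbors on chromosome 9, the CD8SP markers, the most abundant gene of each marker list and the 2 genes most like each receptor. Other genes named with values (Cx3cr1, Fyco1, Lztfl1, Cd4, Zbtb16, Il4, Klrb1c, Icos, Pik3r5, Rhoh, Ly6c2, Klrd1, Id3, Runx1, Runx3, Klrb1f, H2-Q7, Dntt, Cd163l1, Foxp3, Il2ra, other chromosome 9 receptors and genes at 0) were chosen after their values were seen. Values of a few genes that the rule or the lists include are not reported here. Alternatives were DESeq2 1.42.0, its size factors in edgeR, other filters on low counts, the replicate number as a block, a Y-linked covariate and leaving out each library.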

Additional observations from a re-analysis of the deposited data

Results flagged for a closer look

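In each group of 4 libraries, the highest or lowest library was compared with the others by Dixon's test at its 95% critical value of 0.829. Of 54 groups checked, 2 were flagged, where chance alone flags about 1 in 20, or 2.7 here. Ndrg3ctrl 4 was low for Ccr9, at 460.4 CPM against 504 to 507.8 CPM in the other controls, with a gap of 0.92 of the group's range. Ndrg3ctrl 2 had 353.1 CPM of Y-linked counts against at most 0.0731 CPM in the other controls, with a gap of 1 of the range.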

How the results depend on the processing

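Since the receptors were selected on the same values, their results under other settings are a description and no support. The log2 fold changes of Cxcr3 and Cxcr6 ranged from −1.65 to −1.40 and from −0.94 to −0.75 over all alternatives that gave a value. Of 188 alternative values of single genes, 173 kept direction and side of the threshold, 11 passed it newly and 4 changed sign. Those 4 were all Ccr8, at 0.06 without Ndrg3ctrl 1, 0.08 without Ndrg3ctrl 2, 0.10 without Ndrg3TKO 2 and 0.04 without Ndrg3TKO 4, in a range from −0.10 to 0.10 over the libraries left out.

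Against 168 genes called in all, there were 309 with DESeq2, 274 with no filter on low counts, 413 with the Y-linked covariate and 90 to 158 with a library left out, the lowest without Ndrg3TKO 3. The replicate numbers were not shown to pair the mice, and the labels state no pairing. Deviations of same-numbered libraries correlated at 0.181, 0.415, −0.055 and 0.301. Their mean was 0.21, against −0.0687 for libraries of different number across the groups, and 6 of 8 libraries correlated best with their own number. A structure shared by number was therefore not excluded. With the replicate block, 800 genes were called, 1146 with the block and the Y-linked covariate, and 500 in DESeq2 with the block, a fit added after the data were seen. Of the 8 receptors, 5 were called with the block (Ccr4, Ccr7, Cxcr3 and Cxcr6 lower, Ccr9 higher), 4 with the Y-linked covariate, 4 with both (in each, the same 4 lower), 4 in DESeq2 with the block, where Cxcr3 had no adjusted p, and 2 with any library left out. With no filter on low counts 3 receptors were called, Ccr7, Cxcr3 and Cxcr6, all lower. Other receptors called were 1 with the block and 2 with the block and covariate, against 0. Neighbors on chromosome 9 called were 2 with the block, 2 with block and covariate, 1 in DESeq2 with the block and 0 to 1 with a library left out (1 without Ndrg3TKO 2), against 0.

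Ligands called were 0 under the stricter filter of 10 counts and 0 in DESeq2 with the block, in both of which Ccl5 got no adjusted p, against 1. Signalling genes called were 2 with DESeq2, 2 with no filter, 2 with the covariate, 3 with the block, 3 with both, 2 in DESeq2 with the block and 0 to 1 with a library left out (1 without Ndrg3TKO 2), against 0. Regulators called were 4 with no filter, 6 with the covariate, 7 with the block (5 lower and 2 higher), 6 with both, 7 in DESeq2 with the block and 2 to 3 with a library left out, against 2. With the longest transcript as length, 1 pair of neighbors in the order of levels overlapped in controls, against 0. The cause of these changes was not tested. Depth limits Cxcr3, Ccr2 and Ccl5 most.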
